A study of Homo sapiens with 9 samples.

Results

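The regions described here are 1452 stretches of open chromatin that were present in all 9 ATAC-seq libraries but ranked lower in the 3 libraries of cells given WX-02-23 than in every other library. They were chosen by measured values. Peaks of each library were ranked by the authors' −log10 p from strongest to weakest, and the rank was divided by the number of peaks in that library's list, so that a rank fraction near 0 marks the strongest peaks and a fraction near 1 the weakest. A region entered the set when each of its WX-02-23 rank fractions was above all 6 fractions of the WX-02-43 and DMSO libraries and the WX-02-23 mean was higher by at least 0.08. Merging the intervals of the 9 lists gave 128994 regions on chromosomes 1 to 22 and X, of which 59637 were held by all 9 libraries, and 2.43% of those shared regions met the rule. All comparisons of WX-02-23 with the other libraries below rest on the contrast that chose the regions, so they are given as descriptions with no test.

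The cells were 22Rv1, a human prostate carcinoma line, and those of every group had been gene-edited to express the C1111S form of SF3B1. SF3B1 is a core protein of the spliceosome. The libraries fell into 3 groups of 3: WX-02-23 at 20 µM, WX-02-43 at 20 µM and DMSO, the vehicle, at 0.1%, each for 3 h. The labels call WX-02-23 and WX-02-43 stereoprobes, and the study asked how these treatments affect chromatin accessibility. Nothing in the labels says whether the edited line was 1 clone or whether the replicates were separate cultures, so the p-values below refer to the spread between these libraries and may reflect technical variation only. The tissue label, prostate, was not checked against marker genes, because an annotation of the files' genome build was not used here.

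ATAC-seq maps open chromatin by letting a transposase cut and tag DNA that is not covered by nucleosomes. Sites of frequent insertion pile up as peaks at promoters, enhancers and other regulatory elements. In luminal prostate cells, many enhancers are opened by pioneer factors such as FOXA1 and used by the androgen receptor. A lower peak shows fewer insertions at a site, which can reflect a less open site in every cell or an open site in fewer cells, and bulk libraries cannot tell these apart.

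The lists held 105132, 92296 and 90673 peaks with WX-02-23, 82318, 94508 and 97632 peaks with WX-02-43, and 81962, 90196 and 101038 peaks with DMSO. Read totals are not given in these lists. The commonest local background, which follows depth, was 1.33, 1 and 1.1 fragments with WX-02-23, 1.22, 1.38 and 1.41 fragments with WX-02-43, and 1.14, 1.09 and 1.23 fragments with DMSO. WX-02-23 replicate 1 had the longest list of the 9, and since a longer list adds weak peaks at its end, the same region takes a lower rank fraction there. Ranks among the shared regions alone, which use the same 59637 regions in every library, are therefore given beside the list ranks where they bear on a result.

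The 1452 regions lay in the middle of the lists with WX-02-23 and in the stronger part of the lists otherwise. Their median rank fraction was 0.493, 0.572 and 0.556 in the 3 WX-02-23 libraries, 0.331, 0.296 and 0.288 in the 3 WX-02-43 libraries, and 0.339, 0.323 and 0.288 in the 3 DMSO libraries. All 3 WX-02-23 medians were thus above all 6 others, as the rule requires of each region, while the WX-02-43 and DMSO medians overlapped. The mean of the library medians was 0.541 ± 0.0416 with WX-02-23, 0.305 ± 0.0228 with WX-02-43 and 0.317 ± 0.0257 with DMSO (SD, n = 3 each). Over all shared regions the same means were 0.318 ± 0.0263, 0.334 ± 0.0324 and 0.335 ± 0.0366 in that order of groups. Ranked among the shared regions alone, the 1452 regions averaged 0.799 ± 0.0141 with WX-02-23, 0.459 ± 0.00924 with WX-02-43 and 0.475 ± 0.0149 with DMSO.

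**Figure D1:**
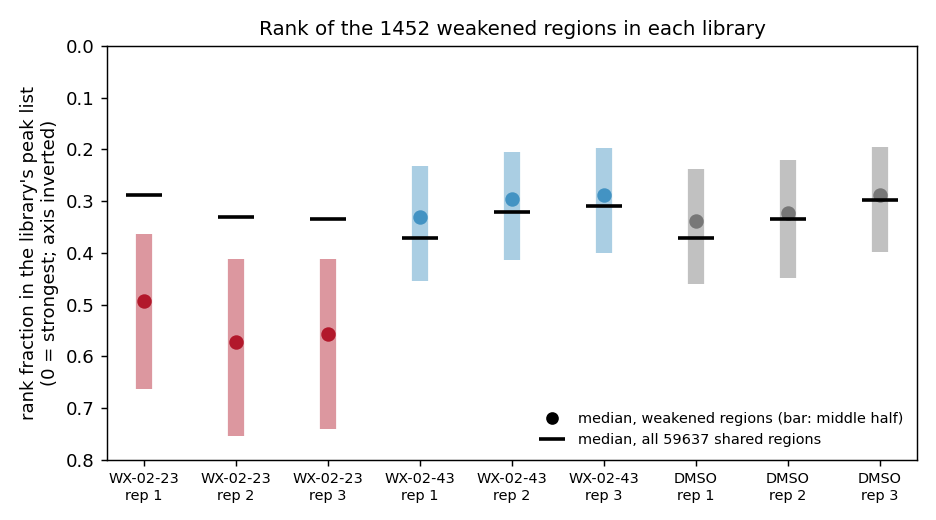
Median rank fraction (points) and middle 50% (bars) of the 1452 weakened regions in each library, with the median of all 59637 shared regions (black dashes). The axis is inverted so that stronger is higher. The 3 WX-02-23 medians are 0.493, 0.572 and 0.556, and the 6 WX-02-43 and DMSO medians lie between 0.288 and 0.339, close to those of all shared regions.

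Fragment numbers at the summit showed the size of the difference. The median summit pileup of the weakened regions was 23, 17 and 19 fragments in the WX-02-23 libraries, 29, 34 and 34 fragments in the WX-02-43 libraries, and 29, 31 and 36 fragments in the DMSO libraries. The shared regions as a whole had medians of 38, 29 and 32 fragments with WX-02-23, 29, 34 and 35 fragments with WX-02-43, and 30, 33 and 38 fragments with DMSO, so the WX-02-23 libraries were not shallower over the shared regions. Counting error on a single region is wide at these depths. A pileup of 17 fragments, the median in WX-02-23 replicate 2, has an exact 95% Poisson interval of 9.90 to 27.2 fragments, and a pileup of 34 has one of 23.5 to 47.5 fragments. These intervals cover counting error only. Fragments here are the units that MACS2 stacked, and the sources do not say whether these were reads or read pairs. If both ends of a pair were stacked, the units are not independent and the intervals are too narrow.

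Divided by the library's own median over the shared regions, the pileup of the weakened regions was 0.605, 0.586 and 0.594 with WX-02-23, 1, 1 and 0.971 with WX-02-43, and 0.967, 0.939 and 0.947 with DMSO. The group means of these relative pileups were 0.595 ± 0.0096 with WX-02-23, 0.990 ± 0.0165 with WX-02-43 and 0.951 ± 0.0140 with DMSO (SD, n = 3 each). In the libraries without WX-02-23 these were regions of about average strength for shared regions. With WX-02-23 they stood clearly below that average in each library.

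Region by region, the ratio of the WX-02-23 mean to the mean of the other 6 libraries had a median of 0.641 for the relative pileup, with quartiles of 0.561 and 0.712. Over all shared regions the median ratio was 0.996, with quartiles of 0.930 and 1.07. A ratio of 0.5 or less was found in 175 weakened regions (12.1%), and a ratio of 0.8 or more in 75 (5.17%). Most of the set therefore kept more than 50% of its relative pileup with WX-02-23. The WX-02-23 relative pileups lay below all 6 others in 1354 of the 1452 regions (93.3%), against 5.01% of all shared regions. The authors' fold enrichment, a ratio to the local background, lay below all 6 others in 1075 of the 1452 (74.0%), against 2.62% of all shared regions. Neither share is evidence beyond the rule, since pileup, fold and p come from the same summits.

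**Figure D2:**
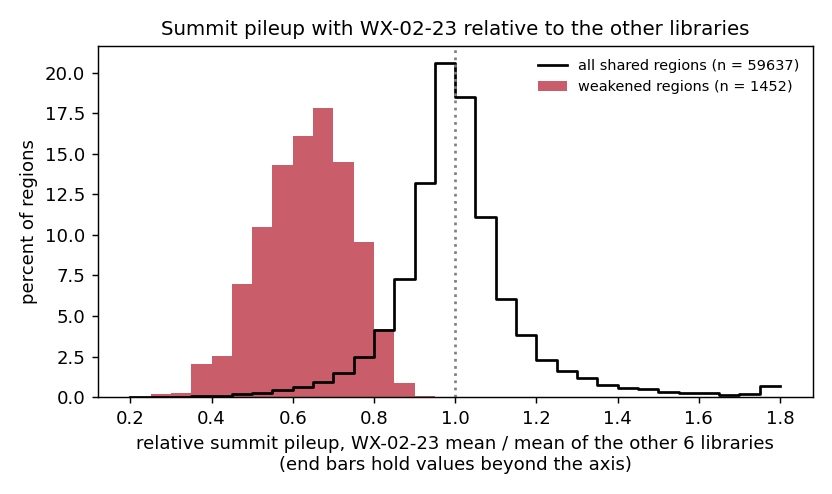
Ratio of the mean relative summit pileup with WX-02-23 to the mean of the 6 WX-02-43 and DMSO libraries, as the percent of regions in each interval of the ratio, for the 1452 weakened regions (filled) and all 59637 shared regions (line). The weakened regions centre on 0.641 and all shared regions on 0.996. The pileup follows from the values that chose the regions.

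Fold enrichment differed less than the pileup, and the local background of these regions was mostly lower with WX-02-23 as well. Median fold enrichment in the weakened regions was 7.16, 6.68 and 7.07 with WX-02-23, 9.43, 9.54 and 9.54 with WX-02-43, and 9.49, 10.0 and 10.3 with DMSO. Their median local background was 1.97, 1.44 and 1.59 fragments with WX-02-23, 2.06, 2.43 and 2.52 fragments with WX-02-43, and 1.94, 2.03 and 2.30 fragments with DMSO, so that WX-02-23 replicate 1 was above DMSO replicate 1. Over all shared regions it was 3.06, 2.28 and 2.49 fragments with WX-02-23, 2.54, 2.94 and 3.05 fragments with WX-02-43, and 2.46, 2.52 and 2.90 fragments with DMSO, where the groups overlapped as well. The ratio of WX-02-23 to the other 6 libraries was 0.755 at the median for fold enrichment, with quartiles of 0.678 and 0.817.

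The peaks were also narrower with WX-02-23. The best peak of each weakened region had a median width of 399, 339 and 346 bp with WX-02-23, 415, 448.5 and 462 bp with WX-02-43, and 425.5, 465.5 and 495 bp with DMSO. Over all shared regions the widths were 493, 428 and 432 bp with WX-02-23, 389, 436 and 452 bp with WX-02-43, and 404, 457 and 486 bp with DMSO. The 3 WX-02-23 widths were thus below all 6 others in the weakened regions, and spread among them over all shared regions. The width of a called peak follows its height, and the 2 were not separated here.

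The extent of the weakening varied widely within the set. The mean rank fraction with WX-02-23 exceeded that of the other 6 libraries by 0.0801 at the least, 0.208 at the median and 0.655 at the most, with quartiles of 0.142 and 0.291. The gap between the strongest WX-02-23 library and the weakest of the other 6 had a median of 0.0529, and it reached 0.1 or more in 400 regions (27.5%). Any shared region with such a gap meets the rule, so these 400 are all of them among the 59637 shared regions. In 228 regions (15.7%) all 3 WX-02-23 fractions were above 0.5 and all 6 others below it. These 228 ranked on the stronger side of the 6 other lists and on the weaker side of the 3 WX-02-23 lists. The rule already separates the groups in every member, and this count was not made over all shared regions.

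No weakened region was lost, since the rule asks for a peak in all 9 libraries. The lowest −log10 q in the set was 2.93, 2.80 and 2.71 with WX-02-23, 5.74, 5.34 and 5.59 with WX-02-43, and 5.37, 5.55 and 6.03 with DMSO, while the lists themselves ended at a −log10 q between 2.00 and 2.17. At least 1 WX-02-23 fraction above 0.9, near the end of the list, was found in 221 regions, and at least 1 WX-02-43 or DMSO fraction above 0.9 in 1 region. All 3 WX-02-23 fractions were above 0.9 in 10 regions. The weakest members therefore stood close to the authors' peak threshold with WX-02-23 but not in the other libraries. The rule puts each WX-02-23 fraction above all 6 others, so the direction of this contrast follows from the choice. The counts above 0.9 were not made over all shared regions.

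The 12 regions with the largest mean difference had rank fractions between 0.582 and 0.992 with WX-02-23, against 0.113 to 0.538 in the other 6 libraries. Their summits held 7 to 22 fragments with WX-02-23, 18 to 60 fragments with WX-02-43 and 17 to 58 fragments with DMSO. Coordinates are those of the authors' hg19 peak lists. No gene, exon or motif is given for any region, because no annotation or sequence of that build was used here.

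The largest difference was on chromosome 3 from 25638964 to 25639983, a region of 1020 bp. Its summit held 16, 12 and 17 fragments with WX-02-23, 49, 57 and 60 fragments with WX-02-43, and 40, 45 and 54 fragments with DMSO. Its rank fractions were 0.848, 0.940 and 0.750 with WX-02-23, 0.172, 0.145 and 0.144 with WX-02-43, and 0.267, 0.232 and 0.187 with DMSO. By rank the 9 libraries thus fell into 3 separate ranges, with WX-02-43 strongest, while the fragment numbers of WX-02-43 and DMSO overlapped. The difference between WX-02-43 and DMSO, −0.0752 with a standard error of 0.0292, did not pass the limma test across all shared regions (adjusted p = 0.933). The WX-02-23 mean exceeded that of the other 6 libraries by 0.655, and the relative pileup ratio was 0.297.

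The second was on chromosome 2 from 212516847 to 212517413, with 10, 9 and 11 fragments with WX-02-23, 29, 33 and 32 fragments with WX-02-43, and 26, 22 and 35 fragments with DMSO. All 3 WX-02-23 libraries were low and close to each other there. Fold enrichment at this summit was 4.72, 4.99 and 5.72 with WX-02-23, 12.8, 13.3 and 12 with WX-02-43, and 11.7, 10.6 and 14.2 with DMSO.

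The third was on chromosome 6 from 155337084 to 155337559, with 14, 7 and 17 fragments with WX-02-23, 45, 54 and 54 fragments with WX-02-43, and 40, 42 and 58 fragments with DMSO. It had the lowest relative pileup ratio of the 12, 0.259. The WX-02-23 libraries differed among themselves in rank, with fractions of 0.763, 0.992 and 0.582, and the 0.992 of replicate 2 put that peak at the very end of its list.

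The fourth was on chromosome 5 from 135830332 to 135831111, with 14, 9 and 12 fragments with WX-02-23, 38, 48 and 38 fragments with WX-02-43, and 36, 44 and 58 fragments with DMSO. The next was on chromosome 9 from 105176471 to 105177008, with 12, 8 and 10 fragments with WX-02-23, 18, 30 and 26 fragments with WX-02-43, and 25, 20 and 34 fragments with DMSO. There the distance between the highest WX-02-23 library and the lowest other library was small in fragments. The remaining 7 of the 12 had relative pileup ratios between 0.352 and 0.410.

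A region on chromosome 6 from 21559835 to 21560269 kept the most fragments of the 12 with WX-02-23. It had 22, 13 and 14 fragments with WX-02-23, 32, 43 and 43 fragments with WX-02-43, and 36, 40 and 53 fragments with DMSO. It was also, of the 12, the one closest to another weakened region, 80.4 kb away. The 12 lay on 10 chromosomes, with 3 of them on chromosome 6.

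**Figure D3:**
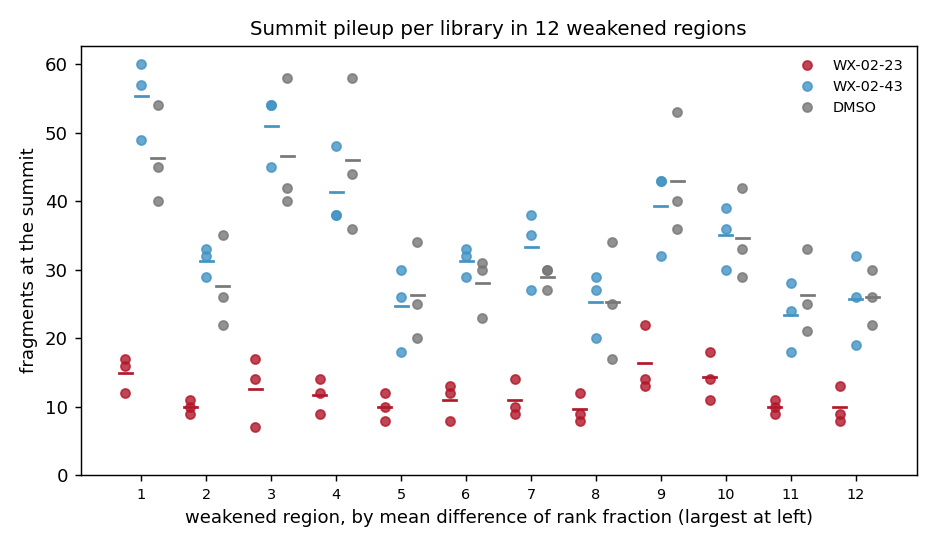
Fragments at the summit in each library (points) and group means (short lines) for the 12 weakened regions with the largest mean difference of rank fraction, in the order WX-02-23, WX-02-43, DMSO within each region. WX-02-23 points lie between 7 and 22 fragments, WX-02-43 points between 18 and 60, and DMSO points between 17 and 58.

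The strongest members were weakened without leaving the top of the lists. The 6 that ranked highest in the other libraries had fractions of 0.113 to 0.237 with WX-02-23, against 0.0194 to 0.0780 in the other 6 libraries. A region on chromosome 13 from 99068491 to 99069347 led them, with 56, 39 and 40 fragments with WX-02-23, 80, 89 and 86 fragments with WX-02-43, and 72, 88 and 97 fragments with DMSO. The WX-02-23 libraries were all below the other 6, although the DMSO libraries and the WX-02-23 libraries each spread widely among themselves. Its fold enrichment differed less, at 14.5, 12.9 and 12.7 with WX-02-23, 15.4, 15.6 and 14.3 with WX-02-43, and 14.4, 16.8 and 17.1 with DMSO, so that the WX-02-23 and other ranges of fold overlapped. The next was on chromosome 7 from 7568765 to 7569647, with 54, 30 and 37 fragments with WX-02-23, 66, 82 and 79 fragments with WX-02-43, and 71, 78 and 85 fragments with DMSO. Here replicate 1 of WX-02-23 was clearly above replicates 2 and 3.

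Of the other 4, one spanned 18420377 to 18421179 on chromosome 8 and one 6297063 to 6298167 on chromosome 10. The remaining pair lay on chromosome 15 between 89664407 and 89665146 and on chromosome 1 between 224330350 and 224331262. Relative pileup ratios over the 6 ran from 0.519 to 0.711. On chromosome 15 the summit held 78, 60 and 59 fragments with WX-02-23, 79, 89 and 99 fragments with WX-02-43, and 98, 94 and 95 fragments with DMSO. WX-02-23 replicate 1 and WX-02-43 replicate 1 differed there by 1 fragment, although their ranks were separate.

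At the edge of the rule, the region just inside was on chromosome 15 from 45329101 to 45329778, with a mean difference of 0.0801. The region just outside was on chromosome 7 from 95932286 to 95932975, with 0.0795. The 3 regions just inside had relative pileup ratios of 0.706 to 0.865 and the 3 just outside had 0.711 to 0.755, so the threshold cut through a continuous range.

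Weakening was most frequent among regions of upper middle strength. Where the 6 WX-02-43 and DMSO libraries had a mean rank fraction below 0.1, 40 of 8811 shared regions were weakened (0.454%). The share was 2.79% between 0.1 and 0.2, 4.39% between 0.2 and 0.3, 4.28% between 0.3 and 0.4 and 3.04% between 0.4 and 0.5. It was 1.77% between 0.5 and 0.6, 0.906% between 0.6 and 0.7 and 0.220% between 0.7 and 0.8. Only 1 weakened region had a mean above 0.8. The rule sets part of this shape, since a region near the end of the list has little room to move down and a region near the top must lose many fragments to move by 0.08.

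The relative loss was largest between rank fractions of 0.2 and 0.4 and smaller toward both ends, most of all among the weaker regions. This pattern was not separated from the need for a peak in every library, which limits the loss a weak region can show. The median relative pileup ratio was 0.654 below 0.1, 0.650 between 0.1 and 0.2, 0.620 between 0.2 and 0.3, 0.617 between 0.3 and 0.4, 0.648 between 0.4 and 0.5, 0.666 between 0.5 and 0.6 and 0.707 between 0.6 and 0.7. In fragments, the members below 0.1 had a median of 45 with WX-02-23, against 72 in the other libraries. Those between 0.3 and 0.4 had 17 with WX-02-23, against 29.

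The mirrored rule, for regions stronger in all 3 WX-02-23 libraries than in the other 6, found 2255 regions (3.78% of all shared). Their share was 0 below 0.1 and 8.47% between 0.7 and 0.8, so their strength without WX-02-23 differed from that of the weakened set. The median rank fraction in the 6 other libraries was 0.315 for the weakened regions, 0.509 for the strengthened regions and 0.344 for all shared regions. The same limits on room to move apply to both sets in opposite directions. With WX-02-43 in place of WX-02-23 the rule of the weakened set found 613 regions (1.03%), and with DMSO in its place 742 regions (1.24%).

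**Figure D4:**
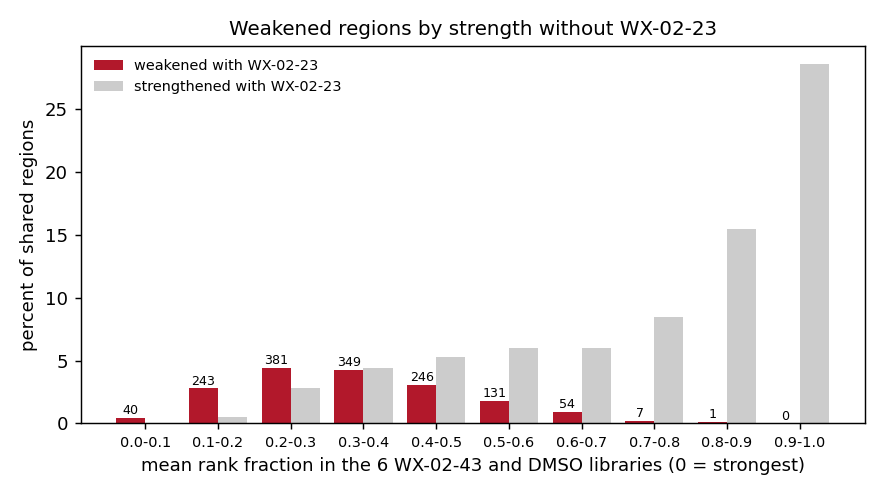
Percent of shared regions that were weakened (red, with the number of regions) or strengthened (grey) with WX-02-23, by the mean rank fraction in the 6 WX-02-43 and DMSO libraries, strongest at left. Weakened regions peak at 4.39% between 0.2 and 0.3, and strengthened regions increase toward the weak end, where the last interval holds 28 shared regions.

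The libraries the rule used were next set apart by replicate number. For each number, the choice was made on the ranks in the 6 libraries of the other 2 numbers, and the 3 unused libraries were read. The unused libraries still had a part in defining the regions, since shared regions were merged from all lists and need a peak in each. With number 3 unused, 1824 regions were chosen, and WX-02-23 was the weakest of the 3 unused libraries in 1597 of them (87.6%), against 48.2% of all shared regions. With number 2 unused, WX-02-23 was weakest in 1727 of 2238 (77.2%), against 36.3%. With number 1 unused, it was weakest in 1924 of 6121 (31.4%), against 11.5%. Of the regions chosen, 1443 (23.6%) for number 1, 1393 (62.2%) for number 2 and 1358 (74.5%) for number 3 were among the 1452. In those WX-02-23 is weakest by the rule, so the readings describe each chosen set and do not test the 1452. The median difference by list rank, WX-02-23 minus the mean of the other 2 unused libraries, was 0.1997 for number 3, 0.151 for number 2 and −0.0294 for number 1, against 0.0175, 0.000207 and −0.0598 in all shared regions. By list rank, then, WX-02-23 replicate 1 was typically the stronger one in the regions chosen without it, as it was over all shared regions. The share over all shared regions differed widely between numbers, and so did the list lengths, which set the denominator of the rank.

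Ranked among the shared regions alone, the 3 readings came close together. WX-02-23 was weakest in 3088 of 4922 chosen regions (62.7%, against 35.5% of all shared regions) for number 1, in 3116 of 4883 (63.8%, against 34.6%) for number 2 and in 3083 of 4783 (64.5%, against 34.5%) for number 3. The median difference in the unused libraries, WX-02-23 minus the mean of the other 2, was 0.0955, 0.0989 and 0.101 of the shared rank in the chosen regions. In all shared regions it was 0.000981, −0.00062 and −0.000855. By shared rank WX-02-23 was thus weakest more often than over all shared regions in libraries whose ranks had no part in that choice. The sets chosen this way are not the 1452, whose choice rests on all libraries, so this is no separate support for the 1452. For each number, though, a sizeable part of the chosen regions did not have WX-02-23 weakest. Regions are not replicates, so no p is given.

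**Figure D5:**
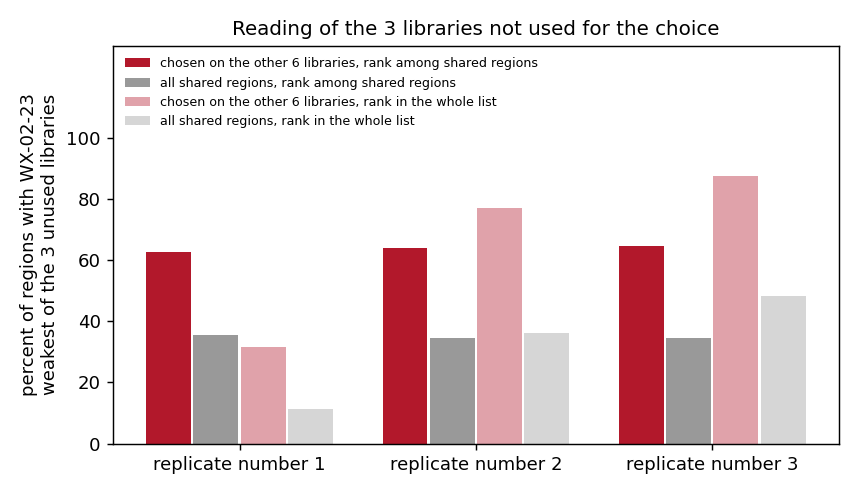
Percent of regions in which WX-02-23 was the weakest of the 3 libraries whose ranks the choice did not use. Shown are regions chosen on the other 6 libraries (red) and all shared regions (grey), ranked among the shared regions (solid) or in the whole list (pale). Among shared regions the chosen regions reach 62.7%, 63.8% and 64.5%, against 35.5%, 34.6% and 34.5%. In the whole lists they reach 31.4%, 77.2% and 87.6%, against 11.5%, 36.3% and 48.2%.

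Replicate 1 of WX-02-23 held its regions less low than the others by list rank. The weakest of the 3 WX-02-23 libraries was replicate 1 in 207 regions (14.3%), replicate 2 in 648 (44.6%) and replicate 3 in 597 (41.1%). Without replicate 1 the rule found 3137 regions. By rank among the shared regions the rule found 2498 regions with all 9 libraries and 3662 without replicate 1, and the setting without replicate 1 was chosen after seeing the data. Of the 1452 regions, 1328 were also found by shared rank, which is 91.5% of the 1452 and 53.2% of the 2498. All 12 regions with the largest difference and all 6 of the strongest were among them.

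WX-02-43 against DMSO was not the contrast of the rule, which treated those 6 libraries alike and set no direction between them. The rule did use their values, since each of the 6 had to rank stronger than every library of the remaining group. A wide difference between WX-02-43 and DMSO therefore made it harder for a region to enter the set. The counts given here for the weakened regions are thus not independent of the choice. No weakened region passed the limma test of the rank fraction (Benjamini-Hochberg adjusted p under 0.05 over all shared regions), and the lowest adjusted p among them was 0.855. With 3 libraries a group this does not show that WX-02-43 and DMSO were alike there. An unadjusted p under 0.05 was found in 76 of the 1452 (5.23%), against 5.32% of all shared regions. Over all shared regions 1 was called (0.00168%), a region outside the weakened set on chromosome 1 from 45186928 to 45188082, with mean rank fractions of 0.224 with WX-02-43 and 0.0291 with DMSO. On a normal score of the shared rank, 1 weakened region was called, as weaker with WX-02-43 (adjusted p = 0.0152, limma).

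The 3 WX-02-43 fractions lay above all 3 DMSO fractions, and so were weaker, in 63 of the 1452 regions (4.34%, against 5.17% of all shared regions). They lay below all 3 DMSO fractions, and so were stronger, in 113 (7.78%, against 5.23%). The median difference of WX-02-43 minus DMSO was −0.00955 in the weakened regions, against −5.42e-05 in all shared regions. The WX-02-43 mean was the stronger one in 844 of the 1452 (58.1%), against 50.1% of all shared regions. So in these regions the WX-02-43 libraries were, by a small margin, more often stronger than DMSO. That margin cannot be weighed against the difference with WX-02-23, which the rule required to be large. A lean toward WX-02-43 was not particular to the weakened regions. The median relative pileup ratio of WX-02-43 to DMSO was 1.04 there, 1.07 in the strengthened regions and 1.01 in all shared regions. Leaving out DMSO replicate 1 turned the median difference in the weakened regions to 0.000688, against 0.0108 in all shared regions. The sign by list rank thus rests on that library, but the weakened regions stayed lower than all shared regions without it. By rank among the shared regions, with that library kept, the median difference was −0.0123, against 0.000193 in all shared regions.

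In width the weakened regions were much like the shared regions, without the widest of them. Their merged width had a median of 608 bp with quartiles of 480 and 745 bp, against 621 bp with quartiles of 449 and 874 bp for all shared regions. Among shared regions of 600 to 800 bp, 3.70% were weakened. The share was 1.55% under 400 bp and 0.807% at 1000 bp or more. The widest shared regions were also the strongest, with a median rank fraction of 0.100 in the 6 libraries without WX-02-23, where few regions met the rule. The widest weakened region, 1761 bp on chromosome 7 from 7493309 to 7495069, held 31, 23 and 22 fragments at its best summit with WX-02-23, 37, 42 and 42 fragments with WX-02-43, and 39, 50 and 49 fragments with DMSO.

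The summit was placed less steadily in the weakened regions with WX-02-23. Between pairs of WX-02-23 libraries the summits lay a median of 58 bp apart in the weakened regions. The distance was 46 bp in 19541 other shared regions with a WX-02-23 rank fraction between 0.40 and 0.715. That range limited the other set only. The weakened regions were all counted, including those outside it, so the sets were not fully alike in rank. Between pairs of WX-02-43 libraries the distance was 46 bp in both sets, and between pairs of DMSO libraries 45.5 bp in the weakened regions and 46 bp in the other set. Summits more than 100 bp apart made up 26.2% of WX-02-23 pairs in the weakened regions, against 15.8% in the other set. For WX-02-43 pairs the shares were 12.6% and 15.0%, and for DMSO pairs 12.2% and 14.7%. The position of the summit did not enter the rule, but fewer fragments place a summit less exactly, and the part of depth in this was not tested.

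The weakened regions were spread over all 23 chromosomes, at 0.701% to 3.35% of the shared regions of a chromosome. The highest share was on chromosome 3, with 123 of 3674 (95% Wilson interval 2.81% to 3.98%), and the lowest on chromosome 19, with 19 of 2710 (0.449% to 1.09%). Chromosomes 16, 17, 19 and 22, picked after their values were seen, held 104 weakened regions among 8698 shared regions (1.20%), against 1348 of 50939 on the others (2.65%). Within a rank fraction of 0.1 to 0.5 in the libraries without WX-02-23, the shares were 1.59% and 3.97%, so the difference was also present among regions of that strength. Strengthened regions were less frequent on those 4 chromosomes too, at 2.10%, against 4.07% on the others. These chromosomes are known to be rich in genes, and whether the regions there are nearer to gene starts was not analysed here.

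Most weakened regions had no other weakened region within 50 kb, and most other shared regions had none either. Another weakened region lay within 50 kb of 129 of the 1452 (8.88%), a higher share than the 6.24% of the other shared regions. The weakened regions had fewer other shared regions within 50 kb, a median of 2 against 3. These differences were not tested. Chained at 50 kb, the set fell into 1323 single regions, 63 pairs and 1 run of 3. That run spanned 66.4 kb on chromosome 8 from 74519177 to 74585562, where 3 of 6 shared regions were weakened, with relative pileup ratios of 0.647 to 0.685. The closest pair was on chromosome 1, from 20864657 to 20865163 and from 20865252 to 20865904, with centres 0.668 kb apart. The first of the pair had 28, 18 and 28 fragments with WX-02-23, 39, 40 and 49 fragments with WX-02-43, and 38, 48 and 40 fragments with DMSO. The other had 27, 16 and 17 fragments with WX-02-23, 43, 39 and 37 fragments with WX-02-43, and 38, 45 and 44 fragments with DMSO. Both were low in all 3 WX-02-23 libraries, and the second of them more so in replicates 2 and 3.

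A region lost with WX-02-23, with a peak in all 6 WX-02-43 and DMSO libraries and in no WX-02-23 library, lay within 50 kb of 46 weakened regions (3.17%), against 1.80% of the other shared regions. A region gained with WX-02-23, with a peak in all 3 WX-02-23 libraries alone, lay within 50 kb of 68 (4.68%), against 4.23%. A strengthened region lay within 50 kb of 169 (11.6%), against 9.78%. At 50 kb the shares for gained and strengthened regions lay near those of the other shared regions. Within 10 kb the shares were 1.17% for lost regions (against 0.435%), 1.93% for gained regions (against 0.944%) and 3.03% for strengthened regions (against 2.01%). None of these differences was tested. The weakened regions had a median of 15.2 kb to the nearest other shared region, against 11.8 kb for the other shared regions.

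Shared regions next to a weakened one changed little. Among 339 neighbours within 5 kb that were not themselves weakened, the median difference in shared rank, WX-02-23 minus the other 6 libraries, was −0.0162, and 40.1% had a positive, that is weaker, difference. Over all shared regions outside the set the median was −0.00126 and 48.7% were weaker. Between 5 and 20 kb the median was 0.00237 in 1152 neighbours, and between 20 and 50 kb it was −0.0017 in 2241. By relative pileup the neighbours within 5 kb had a median ratio of 0.988, against 0.999 over all shared regions outside the set, so rank and pileup leaned in opposite directions and both by little.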

How the data were processed

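ATAC-seq libraries of edited 22Rv1 cells (3 groups of 3) were read as peak lists. The authors used Bowtie2, MACS2 and the build hg19, as the submitters' processing notes name them. Versions, settings, read-end shift and duplicate removal are not given in the sources. The lists were called per library and not pooled. The authors deposited for each peak a score, a fold enrichment (a ratio), a −log10 p, a −log10 q and a summit offset, and all are the authors' own values. The deposited score repeats the −log10 q and was not used.

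Intervals sharing at least 1 bp were merged, and each region took its best peak per library. Tied peaks shared their mean rank. Summit pileup and local background, in the units that MACS2 stacked (called fragments here; reads or read pairs is not stated), were solved from the deposited fold and −log10 p by MACS2's Poisson formula. A whole pileup matched within 0.002 of the −log10 p for 100% of summits, against at most 1.37% with p-values shuffled within a list. WX-02-43 and DMSO were compared with limma 3.58.1 in R 4.3.3 (moderated variance with trend, no covariate), Benjamini-Hochberg adjusted over 59637 regions at 0.05, after the fit was tested on simulated data. A single region tested alone over 3 against 3 libraries could not go below an exact permutation p of 0.1. Other steps used Python 3.11.15, numpy 2.4.6, pandas 2.3.3, scipy 1.17.1 and matplotlib 3.10.9.

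The regions and the tests were chosen with earlier results of these data known. Regions named are the 12 with the largest mean difference, the 6 strongest in the other libraries, those nearest the threshold, the closest pair and the widest. The 3-region run and the limma region outside the set were named after their values were seen. Alternatives changed the ranking value, list length, peak threshold, overlap, mean difference, scale and libraries. Motifs, genes and sequences were not analysed here, since no hg19 genome was used.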

Additional observations from a re-analysis of the deposited data

How the results depend on the processing

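The number of weakened regions was 1452, and 1347 to 2069 when peaks were ranked by fold enrichment or −log10 q, lists were cut to equal length, peaks had to reach a −log10 q of 5, or the mean difference was 0.05 or 0.10. It was 2498 by rank among shared regions, 853 when peaks had to cover 50% of a region, 5373 by the mean difference alone, and 1488 to 3137 with 1 library left out, the highest without WX-02-23 replicate 1. By shared rank without that library it was 3662, a setting chosen after seeing the data. Similar counts did not always mean the same regions. Of the 1452, all were found again by −log10 q and 1181 (81.3%) by fold enrichment. With equal-length lists 1112 (76.6%) were found again, which is 53.7% of that list, and at a −log10 q of 5 it was 1237 (85.2%). The share of chosen regions with WX-02-23 weakest in the unused libraries was 31.4% for number 1, and 36.2% by fold enrichment, 62.7% by shared rank, 28.8% at a difference of 0.05 and 33.1% at 0.10. For number 2 it was 77.2%, and 66.7%, 63.8% and 74.9% by fold, shared rank and 0.05, and for number 3 it was 87.6%, and 78.0% and 64.5% by fold and shared rank. Median width relative to all shared regions was 0.979, and 1.03 for the best peak in DMSO. Another weakened region lay within 10 kb of 1.79% and within 100 kb of 14.4%. The limma test of WX-02-43 against DMSO called 1 shared region, and 2 with the replicate block, 5 with all 9 libraries, 16 by normal score (1 of them weakened), 0 by log2 fold enrichment, 2 by shared rank, and 0 to 1 with 1 library left out (0 without DMSO replicate 1). With log2 fold enrichment, 9.23% of shared regions had an unadjusted p under 0.05. The labels share only numbers and do not say what these stand for, so no pairing was assumed. The deviations of same-numbered DMSO and WX-02-43 libraries correlated at 0.123, 0.0157 and 0.0876, and different-numbered ones at −0.119 to 0.0451. For each DMSO library the same-numbered correlation was the highest. With the replicate block 8.19% of shared regions had an unadjusted p under 0.05 (limma), against 5.32% without it. The replicate block changed no call among the weakened regions. The median width thus turned from narrower to wider than that of all shared regions with the best peak in DMSO. The median difference of WX-02-43 minus DMSO in the weakened regions was −0.00955, and 0.000688 without DMSO replicate 1. In all shared regions it was −5.42e-05, and 0.0108 without that library. The causes of these shifts were not tested, and pileups of 7 to 60 fragments limit what a single region can show.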
